A study of Oryza sativa with 12 samples.

Results

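Expression of 10 rice loci that encode enzymes of jasmonate synthesis or of its enzyme families and proteins of jasmonate perception was followed in seedling roots given the PEP1 signal. The genes are AOS1, AOS2, AOC, OPR1, OPR7 and JAR1 on the enzyme side, and the receptors COI1a, COI1b and COI2 with the transcription factor MYC2 on the perception side. They were taken from the count table by locus ID, under a rule that names the loci and uses no measured value but was written with earlier results of these data known, and make up 10 of its 57265 features. All 10 were found in the table, and all 10 passed the filter on low counts that 25602 features passed.

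The roots were those of seedlings of the rice cultivar XS134, grown in a greenhouse for 7 days after sowing. The groups were an OsPEP1 RNAi line given 1 µM PEP1, the same line given ethanol, wild type given 1 µM PEP1, and wild type given ethanol, with 3 libraries each. The RNAi material is a single transgenic line (Ri1), so a difference from wild type belongs to that line, and the labels do not state which promoter drives the construct or how long the treatment lasted. Transcript levels of the RNAi target OsPEP1 were not analysed here. Nothing in the labels tells whether replicate libraries derive from separate plants or cultures, so the p-values rest on a spread between samples that may be technical.

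Jasmonates are lipid-derived hormones of wounding, defence and root growth. Lipoxygenases oxidise a plastid fatty acid, allene oxide synthase (AOS) and allene oxide cyclase (AOC) turn the product into oxophytodienoic acid (OPDA), and a reductase (OPR) with peroxisomal β-oxidation completes jasmonic acid, which JAR1 joins to isoleucine. The conjugate binds a receptor made of an F-box COI protein and a JAZ repressor, the JAZ protein is degraded, and MYC2 and related bHLH factors become free to activate genes, among them genes of jasmonate synthesis and the JAZ genes themselves.

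Total counts per library ranged from 15368736 to 21317008, and counts of the 10 genes in single libraries ranged from 17 to 3614. Values below are CPM, counts per library total on the usual CPM scale, with totals adjusted by TMM factors. Levels are compared between libraries and not between genes, because gene lengths were not used. All 6 root markers and all 5 shoot markers on the lists were detected in every library. The summed root markers lay at 1984 to 3141 CPM in RNAi PEP1, 1320 to 2225 CPM in RNAi ethanol, 1596 to 4610 CPM in wild type PEP1 and 951 to 1249 CPM in wild type ethanol libraries. The silicon transporter genes Lsi1 and Lsi2 made up most of these sums, with means of 1377 and 1406 CPM in wild type PEP1 libraries. The sums thus follow mainly these genes and do not measure root content. The summed shoot markers lay at 58.4 to 764 CPM, 12.1 to 67.3 CPM, 86.1 to 193 CPM and 26.5 to 294 CPM in the same order of groups, with the highest value in RNAi PEP1 replicate 2. On the first principal component, which held 40.1% of the variance, wild type ethanol replicate 1 (-7.59) lay next to wild type PEP1 replicate 2 (0.58) and away from the other ethanol libraries, and RNAi ethanol replicate 2 (42.0) lay nearest to the PEP1 libraries among the RNAi ethanol libraries. Results are therefore also given without wild type ethanol replicate 1, RNAi ethanol replicate 2 and RNAi PEP1 replicate 2, named below as the 3 libraries that stood apart. The set was chosen after seeing the data, and the name is only a label. Other libraries that lay apart on this component were kept. Wild type PEP1 replicate 2 (0.58) is one, against -62.7 and -83.2 in its group. RNAi PEP1 replicate 3 (-38.4) is another, against -88.5 and -117. In RNA from whole roots, fewer cells of a type and less RNA per cell cannot be told apart.

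**Figure D1:**
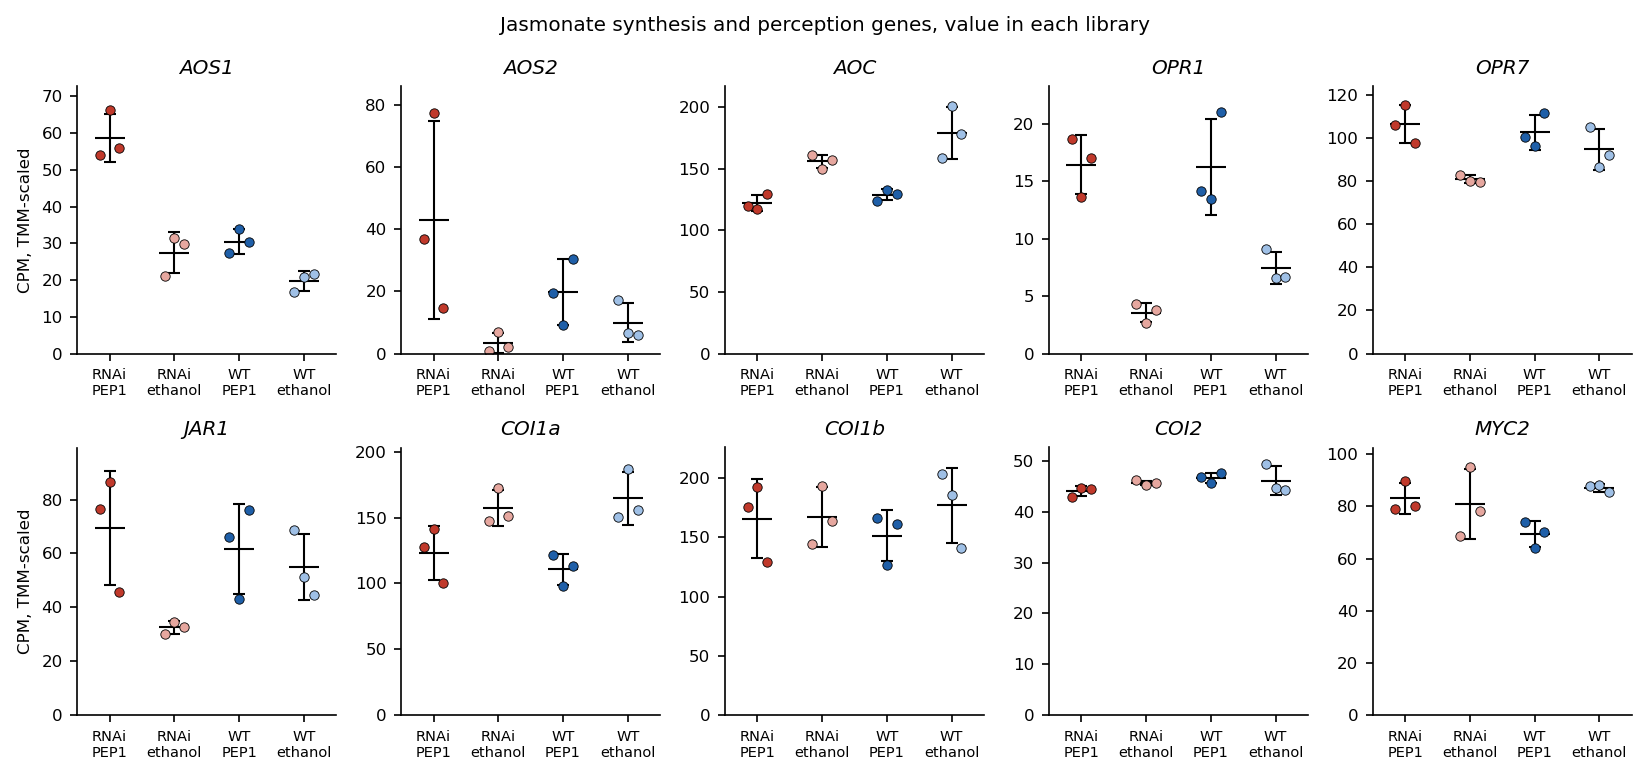
TMM-scaled CPM of each gene (vertical axes, linear and starting at 0, with a scale of their own) in the 4 groups; each point is 1 library, the horizontal line is the mean and the bar is the SD (n = 3). AOS1, AOS2, OPR1, OPR7 and JAR1 in RNAi roots have every PEP1 point above every ethanol point, and AOC has every PEP1 point below every ethanol point in both genotypes.

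In RNAi roots, PEP1 was accompanied by higher transcript levels of 5 of the 6 enzyme genes (AOS1, AOS2, OPR1, OPR7 and JAR1) and a lower level of AOC, whereas none of the receptor genes nor MYC2 passed the test. In wild type roots 1 gene rose (OPR1) and 1 fell (AOC). A gene was counted as higher or lower where its p in the quasi-likelihood test of edgeR, adjusted by the Benjamini-Hochberg method across the 25602 features, was below 0.05. By that criterion 8.68% of all genes tested rose and 6.68% fell in RNAi roots, against 5 and 1 of these 10 genes. In wild type roots 2.54% of all genes rose and 2.66% fell, against 1 and 1 of the 10. The PEP1 comparisons of the RNAi line and of wild type share no library. All 12 libraries entered 1 fit with a shared estimate of the spread, however, so a library of one genotype can move a call in the other. Marker genes of the lists moved in the same comparisons. Of the 5 shoot markers 1 passed in RNAi roots, LOC_Os12g19470 (log2 change 3.50 ± 1.02, SE, edgeR adjusted p = 0.0431), and the median log2 change of the 5 was 3.50, whereas in wild type roots 0 passed and the median was -0.09. Of the 6 root markers 0 passed in RNAi roots, and 2 rose in wild type roots, the silicon transporter genes Lsi1 (LOC_Os02g51110; 1.62 ± 0.33, adjusted p = 0.0174) and Lsi2 (LOC_Os03g01700; 2.23 ± 0.41, adjusted p = 0.0102). The remaining root markers did not pass in wild type roots: NRAMP5 (log2 change -0.59), SHR1 (0.04), SCR1 (-0.01) and QHB (-0.32). The median log2 change of the 6 was -0.50 in RNAi roots and 0.01 in wild type roots. The part of these marker changes in the jasmonate results was not tested.

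The AOS genes encode the enzymes at the entry to the jasmonate branch. AOS1 (LOC_Os03g55800) had 54.0, 66.2 and 55.9 CPM in RNAi PEP1 and 21.1, 31.4 and 29.9 CPM in RNAi ethanol libraries. It had 27.3, 33.9 and 30.3 CPM in wild type PEP1 and 16.7, 20.9 and 21.8 CPM in wild type ethanol libraries. In both genotypes the PEP1 libraries lay above the ethanol libraries without overlap. The change was 2.14-fold in RNAi roots (log2 change 1.10 ± 0.17, SE, edgeR adjusted p = 0.00368), and this call held in all 21 alternative settings. In wild type the log2 change was 0.62 ± 0.17 and missed the threshold (edgeR adjusted p = 0.0681). It passed without RNAi ethanol replicate 1 (0.61, adjusted p = 0.0441), a library that shares in the fit but not in that comparison, and in DESeq2 (adjusted p = 0.0185).

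AOS2 (LOC_Os03g12500), which encodes the same step, had 36.7, 77.3 and 14.5 CPM in RNAi PEP1 and 0.871, 6.93 and 1.97 CPM in RNAi ethanol libraries. It had 19.4, 9.21 and 30.4 CPM in wild type PEP1 and 17.3, 6.50 and 6.05 CPM in wild type ethanol libraries. The RNAi groups did not overlap, although RNAi PEP1 replicates 2 and 3 were far apart, and the wild type groups overlapped. The change in RNAi roots was 13.1-fold (log2 change 3.71 ± 0.86, SE, edgeR adjusted p = 0.0184), and the log2 change in wild type was 0.99 ± 0.77 (adjusted p = 0.540). The call in RNAi roots was lost without RNAi PEP1 replicate 2 (2.97, edgeR adjusted p = 0.0586), without RNAi ethanol replicate 1 (3.25, adjusted p = 0.0583) and without RNAi ethanol replicate 3 (3.46, adjusted p = 0.0783). It held without the 3 libraries that stood apart (4.18, edgeR adjusted p = 0.0125). The summed shoot markers were 94.2, 764 and 58.4 CPM in RNAi PEP1 replicates 1, 2 and 3. AOS2 and the markers were thus both highest in replicate 2 and lowest in replicate 3 of that group. The other groups did not share the whole order. Their marker sums were 20.4, 67.3 and 12.1 CPM in RNAi ethanol libraries. In wild type they were 193, 86.1 and 140 CPM under PEP1 and 68.5, 294 and 26.5 CPM under ethanol. AOS2 and the markers were highest in the same library in RNAi ethanol, but in neither wild type group. They were lowest in the same library in both wild type groups, PEP1 replicate 2 and ethanol replicate 3, but not in RNAi ethanol. The part of the markers in the AOS2 result was not tested.

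AOC (LOC_Os03g32314), the cyclase that acts on the product of AOS, moved the other way. It had 119.8, 117 and 129.7 CPM in RNAi PEP1 and 161, 150.2 and 157 CPM in RNAi ethanol libraries. In wild type it had 124, 133 and 129 CPM under PEP1 and 159, 201 and 178 CPM under ethanol. Every PEP1 library lay below every ethanol library in both genotypes. The log2 change was -0.35 ± 0.11 in RNAi roots (SE, edgeR adjusted p = 0.0498) and -0.48 ± 0.11 in wild type roots (adjusted p = 0.0301). Both values stood close to the threshold: the call was lost in 16 of 21 alternatives in RNAi roots and in 11 of 21 in wild type roots. In RNAi roots it was lost without any 1 of the 6 RNAi libraries, any wild type PEP1 library or wild type ethanol replicate 3, with adjusted p of 0.0581 to 0.162. The wild type call was lost without any wild type PEP1 library, wild type ethanol replicate 2 or 3, RNAi PEP1 replicate 1 or RNAi ethanol replicate 3, with adjusted p of 0.0561 to 0.130. Over the alternatives the log2 change stayed between -0.40 and -0.32 in RNAi roots and between -0.57 and -0.39 in wild type roots.

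OPR7 (LOC_Os08g35740) encodes the OPDA reductase assigned to jasmonic acid synthesis in rice. It had 106, 115 and 97.7 CPM in RNAi PEP1 and 83.1, 80.2 and 79.7 CPM in RNAi ethanol libraries, with no overlap. In wild type the values were 100.4, 96.2 and 112 CPM under PEP1 and 105, 86.7 and 92.4 CPM under ethanol, with overlap. The rise in RNAi roots was 1.31-fold (log2 change 0.39 ± 0.11, SE, edgeR adjusted p = 0.0370) and was lost in 10 of 21 alternatives, among them the fit without the 3 libraries that stood apart (0.33, adjusted p = 0.132). It was also lost without any 1 of the RNAi libraries other than PEP1 replicate 3, without wild type PEP1 replicate 1 and without wild type ethanol replicate 3, with log2 changes of 0.34 to 0.41 and adjusted p of 0.0535 to 0.117. In wild type the log2 change was 0.12 ± 0.11 (edgeR adjusted p = 0.626).

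OPR1 (LOC_Os06g11290) belongs to the same flavoprotein family, in a group not assigned to the main route of jasmonic acid synthesis. It had 18.7, 13.6 and 17.1 CPM in RNAi PEP1 and 4.30, 2.63 and 3.76 CPM in RNAi ethanol libraries. It had 14.1, 13.5 and 21.0 CPM in wild type PEP1 and 9.05, 6.61 and 6.64 CPM in wild type ethanol libraries. All 6 PEP1 libraries lay above all 6 ethanol libraries. OPR1 rose 4.61-fold in RNAi roots (log2 change 2.20 ± 0.26, SE, edgeR adjusted p = 0.000722) and 2.18-fold in wild type roots (1.12 ± 0.25, adjusted p = 0.0268). The call in RNAi roots held in all 21 alternatives. The call in wild type was lost in 5, among them the fits without wild type PEP1 replicate 1 (1.22, edgeR adjusted p = 0.0602), PEP1 replicate 3 (0.89, adjusted p = 0.117), ethanol replicate 2 (1.05, adjusted p = 0.0903) and ethanol replicate 3 (1.05, adjusted p = 0.101). OPR1 lies in a cluster of similar genes on chromosome 6, so its reads may have been shared with a neighbouring copy.

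JAR1 (LOC_Os05g50890) encodes the enzyme that joins jasmonic acid to isoleucine and so makes the form that the receptor binds. It had 76.5, 86.4 and 45.8 CPM in RNAi PEP1 and 30.1, 34.5 and 32.8 CPM in RNAi ethanol libraries. In wild type it had 65.9, 43.1 and 76.0 CPM under PEP1 and 68.6, 51.3 and 44.7 CPM under ethanol. The RNAi groups did not overlap, and RNAi ethanol was the tightest and lowest of the 4 groups, whereas the wild type groups covered nearly the same range. JAR1 rose 2.14-fold in RNAi roots (log2 change 1.10 ± 0.26, SE, edgeR adjusted p = 0.0220), against a log2 change of 0.17 ± 0.26 in wild type (adjusted p = 0.786). The call in RNAi roots was lost when any library of those groups other than RNAi PEP1 replicate 3 was left out, with log2 changes of 0.91 to 1.14 and edgeR adjusted p from 0.0505 to 0.0746. It was also lost without the 3 libraries that stood apart (0.96, adjusted p = 0.0818).

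**Figure D2:**
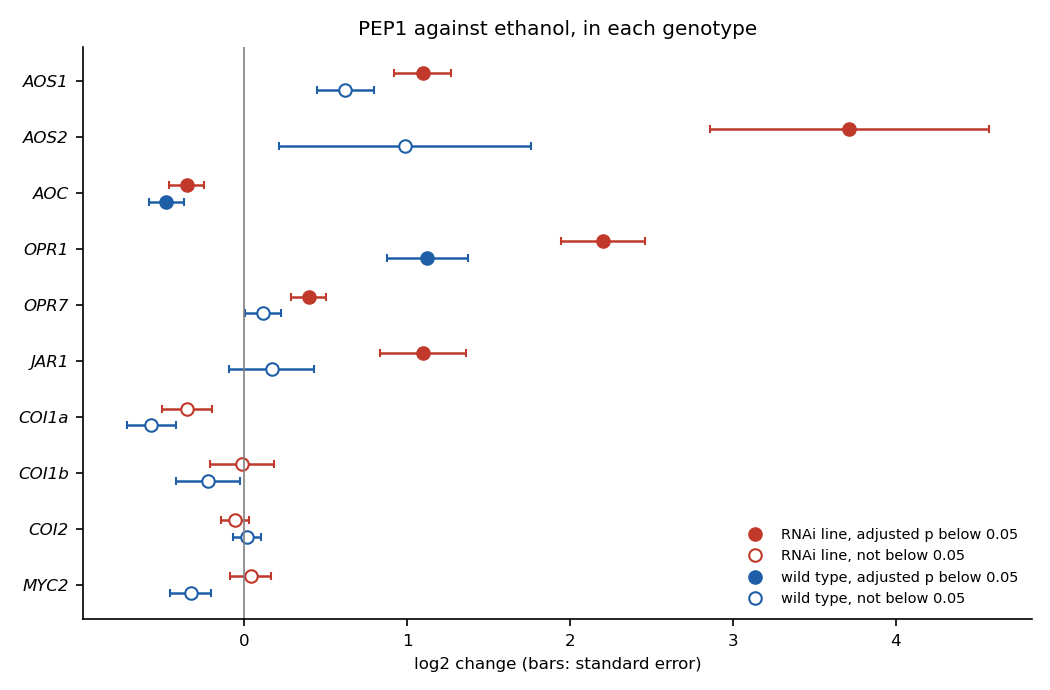
Log2 change of each gene under PEP1 against ethanol (horizontal axis, bars are the SE of the edgeR fit) in the RNAi line (red, upper) and in wild type (blue, lower); filled points have an adjusted p below 0.05. The enzyme genes AOS1, AOS2, OPR1, OPR7 and JAR1 lie to the right of 0 with filled points in the RNAi line, AOC lies to the left in both genotypes, and every receptor and MYC2 point is open.

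The receptor and MYC2 transcripts gave no call in any of the 4 pairwise comparisons. COI1a (LOC_Os01g63420), an F-box receptor subunit, had 127, 142 and 101 CPM in RNAi PEP1 and 148, 173 and 151 CPM in RNAi ethanol libraries. In wild type it had 121, 97.9 and 113 CPM under PEP1 and 151, 187 and 156 CPM under ethanol. The PEP1 libraries lay below the ethanol libraries without overlap in each genotype. The log2 change was -0.35 ± 0.15 in RNAi roots (SE, edgeR adjusted p = 0.133) and -0.57 ± 0.15 in wild type roots (adjusted p = 0.0562). The wild type value passed in 6 of 21 alternatives, among them the fits without wild type ethanol replicate 1 (-0.64, adjusted p = 0.0334), without RNAi PEP1 replicate 2 (-0.58, adjusted p = 0.0476), without RNAi PEP1 replicate 3 (-0.57, adjusted p = 0.0413) and without the 3 libraries that stood apart (-0.64, adjusted p = 0.0342).

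COI1b (LOC_Os05g37690), the closest relative of COI1a, had 166 ± 33.1 CPM in RNAi PEP1, 167 ± 25.0 CPM in RNAi ethanol, 152 ± 21.6 CPM in wild type PEP1 and 177 ± 32.1 CPM in wild type ethanol libraries (mean ± SD, n = 3 each). All 4 groups overlapped, and the log2 change under PEP1 was -0.01 ± 0.20 in RNAi roots and -0.22 ± 0.20 in wild type roots (SE, edgeR adjusted p = 0.977 and 0.589). COI2 (LOC_Os03g15880), the third COI protein of rice, had 44.0 ± 0.986, 45.7 ± 0.441, 46.7 ± 0.946 and 46.1 ± 2.79 CPM in the same order of groups. Its log2 change was -0.05 ± 0.09 in RNAi roots, where the PEP1 libraries (42.9, 44.7 and 44.5 CPM) lay just below the ethanol libraries (46.2, 45.3 and 45.7 CPM), and 0.02 ± 0.09 in wild type roots. Its edgeR adjusted p was 0.690 in RNAi roots and 0.946 in wild type roots.

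Because the COI genes are counted in the same libraries, the share of each among the reads of the 3 receptor genes does not depend on scaling. COI1a held 36.8%, 37.3% and 36.7% of these reads in RNAi PEP1 and 43.7%, 41.9% and 41.9% in RNAi ethanol libraries. In wild type it held 36.2%, 36.2% and 35.2% under PEP1 and 37.3%, 44.8% and 45.6% under ethanol. The PEP1 shares were thus below the ethanol shares in both genotypes, with wild type ethanol replicate 1 close to the PEP1 libraries. Its exact binomial (Clopper-Pearson) 95% interval of 36.1% to 38.5% overlapped that of wild type PEP1 replicate 1, 35.1% to 37.4%; these intervals cover counting error only. The group means were 37.0% ± 0.337, 42.5% ± 1.01, 35.9% ± 0.590 and 42.6% ± 4.58 (SD, n = 3 each) in RNAi PEP1, RNAi ethanol, wild type PEP1 and wild type ethanol libraries. COI1a and COI1b are similar in sequence, and reads could have been divided between them.

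**Figure D3:**
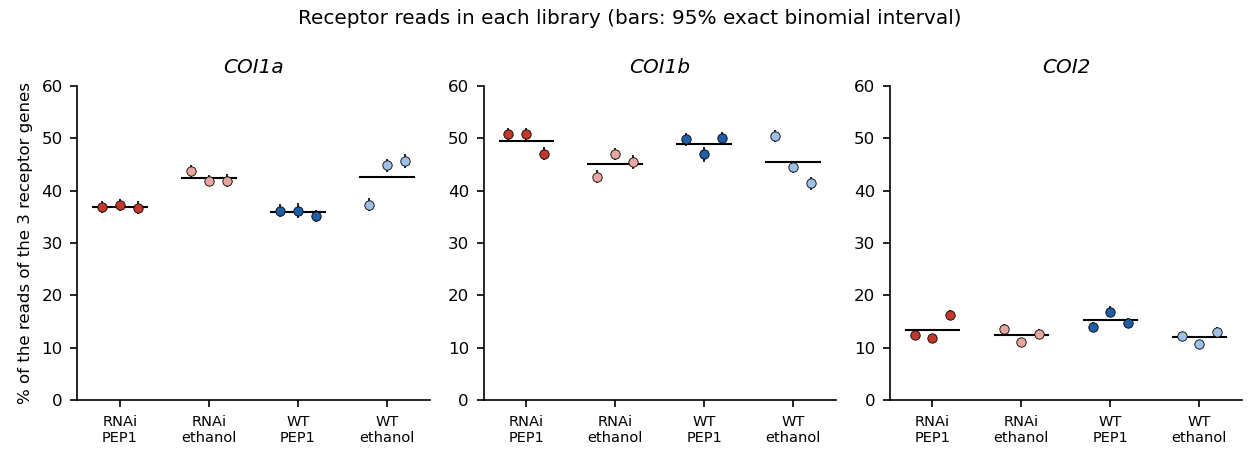
Share of COI1a, COI1b and COI2 among the summed reads of the 3 receptor genes (vertical axes, %) in each library of the 4 groups; bars are 95% exact binomial intervals for counting error and lines are group means. COI1a holds 35.2% to 37.3% in the PEP1 libraries and 41.9% to 45.6% in 5 of the 6 ethanol libraries, with wild type ethanol replicate 1 at 37.3%.

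MYC2 (LOC_Os10g42430), the bHLH activator that JAZ proteins hold back, had 79.1, 89.6 and 80.3 CPM in RNAi PEP1 and 68.8, 95.2 and 78.3 CPM in RNAi ethanol libraries. It had 74.0, 64.0 and 70.0 CPM in wild type PEP1 and 87.7, 88.2 and 85.3 CPM in wild type ethanol libraries. In wild type the PEP1 libraries lay below the ethanol libraries without overlap, and in the RNAi line the groups overlapped. The log2 change was 0.04 ± 0.12 in RNAi roots and -0.33 ± 0.12 in wild type roots (SE, edgeR adjusted p = 0.853 and 0.177).

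Counted by library ranges alone, PEP1 and ethanol did not overlap for 8 of the 10 genes in RNAi roots, 5 higher and 3 lower, where 41.5% of all genes tested did not overlap. In wild type roots this held for 5 of the 10, 2 higher and 3 lower, where the share over all genes was 20.9%. AOS1 and OPR1 were higher, and AOC and COI1a lower, without overlap in both genotypes.

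Between the RNAi line and wild type, 1 gene of the 10 passed under each treatment, AOS1 under PEP1 and OPR1 under ethanol. Under PEP1, AOS1 was 1.93-fold higher in RNAi roots, at 58.7 ± 6.56 CPM, than in wild type roots, at 30.5 ± 3.31 CPM (SD, n = 3 each). The log2 change was 0.95 ± 0.17 (SE, edgeR adjusted p = 0.0122), and the call was lost without RNAi PEP1 replicate 2 (0.85, adjusted p = 0.0578), without wild type PEP1 replicate 1 (0.87, adjusted p = 0.0761) and without wild type PEP1 replicate 3 (0.93, adjusted p = 0.0629). It held without the 3 libraries that stood apart (0.85, adjusted p = 0.0410). Of all genes tested, 1.52% were higher and 1.14% lower in the RNAi line under PEP1, against 1 and 0 of the 10. Library ranges did not overlap for 3 of the 10, and for 16.0% of all genes: AOS1 and MYC2 were higher and COI2 lower in the RNAi line.

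Under ethanol, OPR1 was 2.08-fold lower in RNAi roots, at 3.56 ± 0.855 CPM, than in wild type roots, at 7.44 ± 1.40 CPM (SD, n = 3 each; log2 change -1.06 ± 0.25, SE, edgeR adjusted p = 0.0454). This call was lost in 15 of 21 alternatives, among them the fit without the 3 libraries that stood apart (-0.73, adjusted p = 0.264). Leaving out any 1 of the 6 ethanol libraries ended it, as did leaving out RNAi PEP1 replicate 1 or 3 or wild type PEP1 replicate 1 or 2, with log2 changes of -1.23 to -0.89 and adjusted p of 0.0518 to 0.160. Of all genes tested, 2.16% were higher and 1.63% lower in the RNAi line under ethanol, against 0 and 1 of the 10. The ranges of OPR1, OPR7 and JAR1 lay below wild type without overlap, which makes 3 of the 10, against 17.3% of all genes. JAR1 had 32.5 ± 2.23 CPM in RNAi ethanol and 54.9 ± 12.4 CPM in wild type ethanol libraries (log2 change -0.76 ± 0.26, edgeR adjusted p = 0.196), and OPR7 had 81.0 ± 1.81 and 94.8 ± 9.59 CPM (-0.23 ± 0.11, adjusted p = 0.400).

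AOS2 gave no genotype call under either treatment. Its mean was 42.8 ± 31.8 CPM in RNAi and 19.7 ± 10.6 CPM in wild type roots under PEP1 (SD, n = 3 each; log2 change 1.12 ± 0.76, SE, edgeR adjusted p = 0.823). Under ethanol it was 3.26 ± 3.23 CPM in RNAi and 9.95 ± 6.37 CPM in wild type roots (-1.61 ± 0.81, adjusted p = 0.424). Each genotype comparison shares its libraries with a PEP1 comparison, so these values are not independent of the changes given above.

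**Figure D4:**
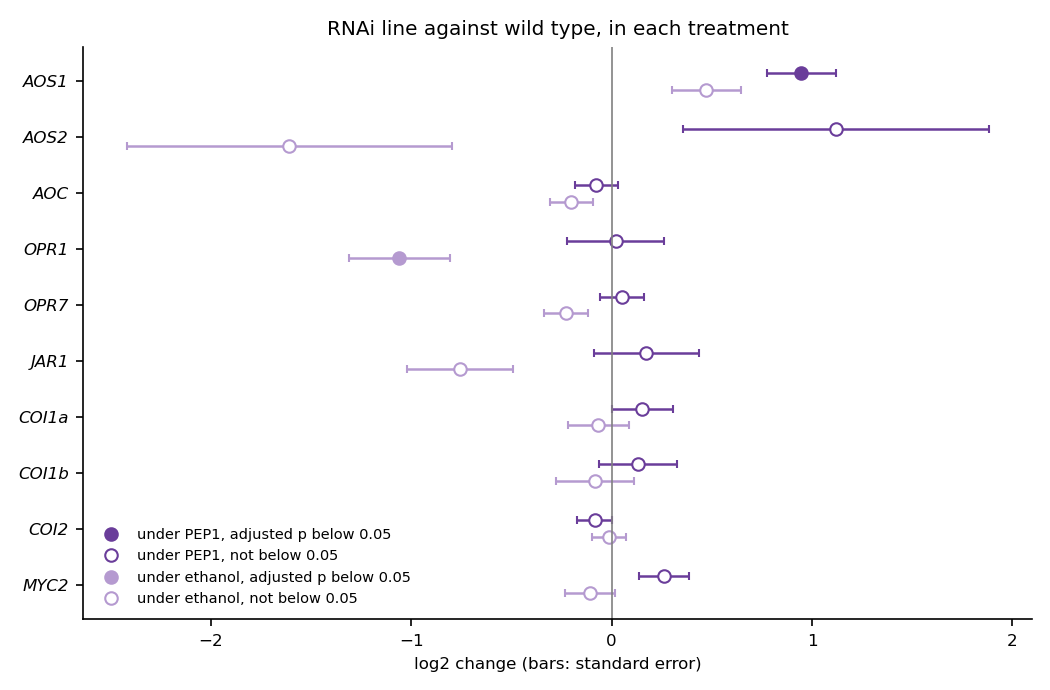
Log2 change of each gene in the RNAi line against wild type (horizontal axis, bars are the SE of the edgeR fit) under PEP1 (dark, upper) and under ethanol (light, lower); filled points have an adjusted p below 0.05. AOS1 under PEP1 (0.95) and OPR1 under ethanol (-1.06) are the filled points, and AOS2 has the widest bars.

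Ordered by mean, AOS1 was highest in RNAi PEP1, then wild type PEP1, RNAi ethanol and wild type ethanol roots, and the 3 groups below the first overlapped with their neighbours. AOS2 ran from RNAi PEP1 through wild type PEP1 and wild type ethanol to RNAi ethanol, and each neighbouring pair of groups overlapped. OPR1 had near-equal means in RNAi PEP1 and wild type PEP1 (16.4 and 16.2 CPM), above wild type ethanol and then RNAi ethanol, and only the PEP1 pair overlapped. JAR1 and OPR7 had the same order as OPR1, and for both the RNAi ethanol group stood below the other 3 while those overlapped.

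Whether PEP1 changed a gene differently in the RNAi line and in wild type was tested by the interaction, the PEP1 log2 change in RNAi roots minus that in wild type roots. No interaction passed for any of the 10 genes in edgeR, and 0.00391% of all genes tested, which is 1 gene, passed. DESeq2 and limma-voom also called 0 of the 10. An unadjusted p below 0.05 was found for 3 of the 10, against 5.28% of all genes tested. These were OPR1 (log2 difference 1.08 ± 0.35, SE, edgeR adjusted p = 0.782), JAR1 (0.93 ± 0.37, adjusted p = 0.909) and AOS2 (2.73 ± 1.11, adjusted p = 0.919). The log2 difference was positive in 9 of the 10 and -0.07 ± 0.12 in COI2. Among the positive ones, AOC (0.12 ± 0.15), COI1a (0.22 ± 0.21) and COI1b (0.21 ± 0.28) were close to their SE or below it. The median over all genes tested was 0.02, and the share of all genes with a positive difference is not given here, so this count is not set against all genes. AOS1, AOS2, OPR7 and JAR1 thus passed in the RNAi line and not in wild type, but none of them was shown to respond differently in the 2 genotypes.

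The 10 genes differed widely in how much libraries of the same group varied. AOS2 had a within-group SD of 1.11 on the log2 scale, above that of 96.2% of the genes tested, and its highest library (77.3 CPM, RNAi PEP1 replicate 2) was 88.7-fold above its lowest (0.871 CPM, RNAi ethanol replicate 1). COI2 stood at the other end, with a within-group SD of 0.0486 and a highest library 1.15-fold above its lowest. By its SD of 0.0530 over all 12 libraries it ranked 5 from the lowest among 25602 genes. COI2 had 742 to 965 counts per library, and the part of counting error in this rank was not tested. Within-group SDs were 0.362 in JAR1, 0.304 in OPR1, 0.254 in COI1b, 0.218 in AOS1, 0.182 in COI1a, 0.139 in MYC2, 0.110 in OPR7 and 0.0993 in AOC, against a median of 0.329 over all genes tested. RNAi PEP1 replicate 2, which had the highest shoot marker sum (764 CPM), was the highest of the 12 libraries for AOS1, AOS2, OPR7 and JAR1. The same library was the lowest of the 12 for AOC (117 CPM) and the lowest of the RNAi PEP1 libraries for OPR1 (13.6 CPM). The part of the shoot markers in these values was not tested.

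The balance between the AOS genes also varied among libraries of a group. AOS2 made up 40.4%, 53.9% and 20.6% of the summed AOS1 and AOS2 reads in RNAi PEP1 and 3.97%, 18.1% and 6.18% in RNAi ethanol libraries. In wild type its share was 41.6%, 21.4% and 50.1% under PEP1 and 50.9%, 23.7% and 21.7% under ethanol. The 3 RNAi ethanol values were the lowest of the 12, but by counting error alone the highest of them (exact binomial 95% interval 15.3% to 21.2%) overlapped RNAi PEP1 replicate 3 (18.6% to 22.7%).

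For each gene that passed in a comparison, the most similar profile among all genes tested was found by the root mean square (RMS) difference of centred log2 CPM over the 12 libraries. JAR1 was nearest to LOC_Os04g23720 (RMS 0.118, against 0.498 for a flat profile), which had 8.01 ± 1.42 CPM in RNAi PEP1, 3.66 ± 0.150 CPM in RNAi ethanol, 6.90 ± 1.88 CPM in wild type PEP1 and 6.60 ± 1.81 CPM in wild type ethanol libraries (SD, n = 3 each). AOS1 was nearest to LOC_Os03g60220 (0.184, flat 0.597), AOC to LOC_Os01g67330 (0.0767, flat 0.233) and OPR7 to LOC_Os09g02284 (0.0466, flat 0.175). OPR1 was nearest to Novel01130 (0.222, flat 0.936) and AOS2 to LOC_Os10g41330 (0.378, flat 1.68). The files give no names for these loci. Among the 10 genes themselves, the closest pair was COI1b and MYC2 (RMS 0.163, against 0.222 for COI1b and 0.167 for MYC2 to a flat profile, so MYC2 was about as near to a flat line as to COI1b) and the most distant was AOS2 and AOC (1.85). All these distances share the depth and the scaling of the same libraries.

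The remaining steps of the pathway and their enzyme families were followed through 57 other loci, of which 46 passed the filter on low counts and 2 were at 0 in every library. In RNAi roots, JAZ repressor genes rose under PEP1 in 7 of the 12 tested, and 0 fell, with a median log2 change of 1.00; 8.68% of all genes tested rose, and the median of all of them was -0.01. In wild type roots 0 of 12 JAZ loci passed (median 0.06, all genes -0.00). There 2.54% of all genes tested rose and 2.66% fell, so a count of 0 does not set the JAZ loci apart from all genes. JAZ5 (LOC_Os04g32480) had the largest rise of these 7, by 4.22 ± 0.62 on the log2 scale (SE, edgeR adjusted p = 0.00249), from low counts: 2.09, 4.28 and 2.28 CPM under PEP1 and 0.154, 0.224 and 0.0616 CPM under ethanol. With 4 counts at most in a RNAi ethanol library, JAZ5 passed the filter on low counts through other groups and could hardly have been seen to fall. JAZ12 (LOC_Os10g25290) had 26.0, 38.9 and 23.4 CPM in RNAi PEP1 and 3.07, 7.49 and 7.95 CPM in RNAi ethanol libraries, without overlap (2.26 ± 0.35, adjusted p = 0.00348). JAZ11 (LOC_Os03g08320; 2.22 ± 0.48, adjusted p = 0.0137) and JAZ9 (LOC_Os03g08310; 1.34 ± 0.38, adjusted p = 0.0400) also rose, and the JAZ9 call was lost in 10 of 21 alternatives. JAZ9, JAZ10 and JAZ11 are neighbouring copies, as are JAZ12 and JAZ13, so reads could have been divided between them. Without the 3 libraries that stood apart, 6 JAZ loci rose in RNAi roots and 0 in wild type roots. That fit called 2339 genes in RNAi roots and 2882 in wild type roots in either direction, against 3934 and 1330 with all libraries. The share of all genes that rose in it is not given here, so these JAZ counts are not set against all genes. No JAZ locus passed the interaction.

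Downstream of the receptor, 3 of the 4 output loci tested rose in RNAi roots under PEP1 (median log2 change 1.19), where 8.68% of all genes rose with a median of -0.01. In wild type roots 0 of 4 passed (median 0.74), where 2.54% of all genes rose with a median of -0.00. bHLH148 (LOC_Os03g53020), a bHLH factor of jasmonate responses, had 74.3, 64.3 and 61.4 CPM in RNAi PEP1 and 10.7, 32.5 and 25.1 CPM in RNAi ethanol libraries. In wild type it had 19.1, 19.2 and 22.6 CPM under PEP1 and 13.2, 16.3 and 8.13 CPM under ethanol, so the RNAi PEP1 libraries stood above all others. Its log2 change in RNAi roots was 1.55 ± 0.35 (SE, edgeR adjusted p = 0.0169), and JAMYB (LOC_Os11g45740), a MYB factor named for its jasmonate response, rose by 1.35 ± 0.39 (adjusted p = 0.0401). The bHLH148 call was lost without RNAi PEP1 replicate 1 (1.47, adjusted p = 0.0588) and without RNAi ethanol replicate 3 (1.63, adjusted p = 0.0569). LOC_Os04g23550, an output locus without a matched name, rose by 1.04 ± 0.32 (adjusted p = 0.0490). The JAMYB call was lost in 9 of 21 alternatives and that of LOC_Os04g23550 in 13.

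In the genotype comparisons the same unnamed output locus, LOC_Os04g23550, was higher in the RNAi line under both treatments, and this held in all 21 alternatives. It had 16.0, 14.3 and 19.8 CPM in RNAi and 2.07, 2.73 and 2.07 CPM in wild type roots under PEP1 (log2 change 2.87 ± 0.34, SE, edgeR adjusted p = 0.000577). Under ethanol it had 4.10, 11.3 and 8.93 CPM in RNAi and 1.18, 1.42 and 1.36 CPM in wild type roots (2.61 ± 0.35, adjusted p = 0.00123). Also higher in the RNAi line under PEP1 were bHLH148 (1.71 ± 0.35, adjusted p = 0.0246), JAZ13 (LOC_Os10g25230; 2.35 ± 0.43, adjusted p = 0.0122) and JAZ12 (1.48 ± 0.34, adjusted p = 0.0490). These calls make 2 of the 12 JAZ and 2 of the 4 output loci tested, against 1.52% of all genes. Under ethanol 1 of the 4 output loci was higher, against 2.16% of all genes, and 1 of the 12 JAZ loci was lower, against 1.63%. The JAZ12 call was lost in 13 of 21 alternatives and the bHLH148 call in 7, both among them without the 3 libraries that stood apart (1.22 and 1.74, adjusted p = 0.158 and 0.0569). The JAZ13 call was lost in 3, without wild type PEP1 replicate 1 (2.07, adjusted p = 0.0674), without wild type PEP1 replicate 3 (2.21, adjusted p = 0.0761) and with only the groups compared (2.35, adjusted p = 0.0536). Under ethanol JAZ3 (LOC_Os08g33160) was lower in the RNAi line, at 74.3 ± 4.85 CPM, than in wild type, at 122 ± 18.0 CPM (SD, n = 3 each; -0.72 ± 0.13, edgeR adjusted p = 0.00887). This call was lost without RNAi ethanol replicate 3 (-0.68, adjusted p = 0.0519) and with only the groups compared (-0.72, adjusted p = 0.0502).

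The lipase and lipoxygenase list covers enzyme families and was not limited to the members that feed AOS. Of its 11 loci tested, 2 rose in RNAi roots under PEP1, where 8.68% of all genes tested rose. In wild type roots 0 passed, where 2.54% rose. The median log2 changes of the 11 were 0.17 in RNAi roots and 0.14 in wild type roots, so neither count sets the list apart from all genes. One of them, LOC_Os04g37430, had 57.7, 66.8 and 66.4 CPM in RNAi PEP1 and 27.0, 40.6 and 37.2 CPM in RNAi ethanol libraries (log2 change 0.87 ± 0.18, SE, edgeR adjusted p = 0.0112). With 17.3, 24.7 and 23.8 CPM in wild type PEP1 and 17.9, 15.9 and 15.7 CPM in wild type ethanol libraries, it was higher in the RNAi line under PEP1 (1.54 ± 0.18, adjusted p = 0.000503) and under ethanol (1.08 ± 0.18, adjusted p = 0.00516). No other locus of the 11 was called between genotypes, where 1.52% of all genes were higher under PEP1 and 2.16% under ethanol. The ethanol call of LOC_Os04g37430 was lost without the 3 libraries that stood apart (1.01, adjusted p = 0.0609). Its order of groups was RNAi PEP1, RNAi ethanol, wild type PEP1 and wild type ethanol, and only the wild type groups overlapped. The other, LOC_Os08g39840, rose from low counts (4.88 ± 1.03, adjusted p = 0.0130), with 12.01, 9.37 and 5.36 CPM in RNAi PEP1 and 0.307, 0.447 and 0.123 CPM in RNAi ethanol libraries. With 8 counts at most in a RNAi ethanol library, it passed the filter on low counts through other groups. Its call in RNAi roots was lost without RNAi ethanol replicate 1 (4.91, adjusted p = 0.0511) and without replicate 3 (4.54, adjusted p = 0.0612).

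Among the remaining lists, 1 of the 2 other CYP74 loci tested, LOC_Os02g12680, rose in both genotypes from nearly no reads (20, 49 and 16 counts in RNAi PEP1 against 3, 2 and 0 in RNAi ethanol, and 17, 6 and 22 counts in wild type PEP1 against 1, 0 and 0 in wild type ethanol libraries). Its edgeR adjusted p was 0.0154 in RNAi roots and 0.0303 in wild type roots. With 3 counts or fewer in every ethanol library, this locus passed the filter on low counts only through PEP1 libraries. A rise was thus the only direction that these tests could show. Alternatives in which the locus did not pass the filter are left out of the numbers that follow. The RNAi call was lost in 3 of 20 alternatives, without RNAi PEP1 replicate 2 (adjusted p = 0.0519), without RNAi ethanol replicate 3 (0.0571) and without the 3 libraries that stood apart (0.0821). The wild type call was lost in 5 of 19, with the replicate block (0.0581) and without wild type PEP1 replicate 1 or 3 or ethanol replicate 2 or 3 (adjusted p of 0.0852 to 0.108). None of the 5 other OPR loci tested and none of the 8 β-oxidation loci passed in either PEP1 comparison. Their median log2 changes were 1.81 and 0.57 in RNAi roots and 0.57 and 0.24 in wild type roots. Of the 4 conjugation and turnover loci, 0 passed under PEP1 against ethanol. Of all genes tested, 8.68% rose and 6.68% fell in RNAi roots under PEP1. In wild type roots 2.54% rose and 2.66% fell. Counts of 0 in lists this short do not set them apart from all genes. Between genotypes, 2 of the 4 conjugation and turnover loci were higher in the RNAi line under PEP1, against 1.52% of all genes. Under ethanol 1 of the 4 was higher, against 2.16% of all genes. Higher in the RNAi line than in wild type were LOC_Os11g05380 (10.9 ± 0.373 against 2.72 ± 0.883 CPM, SD, n = 3 each, edgeR adjusted p = 0.0295) and LOC_Os12g05440 (log2 change 1.98 ± 0.43, SE, adjusted p = 0.0342) under PEP1 and LOC_Os01g12160 (0.84 ± 0.18, adjusted p = 0.0236) under ethanol. The alternatives that ended these calls numbered 8, 9 and 7 of 21, and for each the fit without the 3 libraries that stood apart was one (adjusted p = 0.0599, 0.0928 and 0.233).

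**Figure D5:**
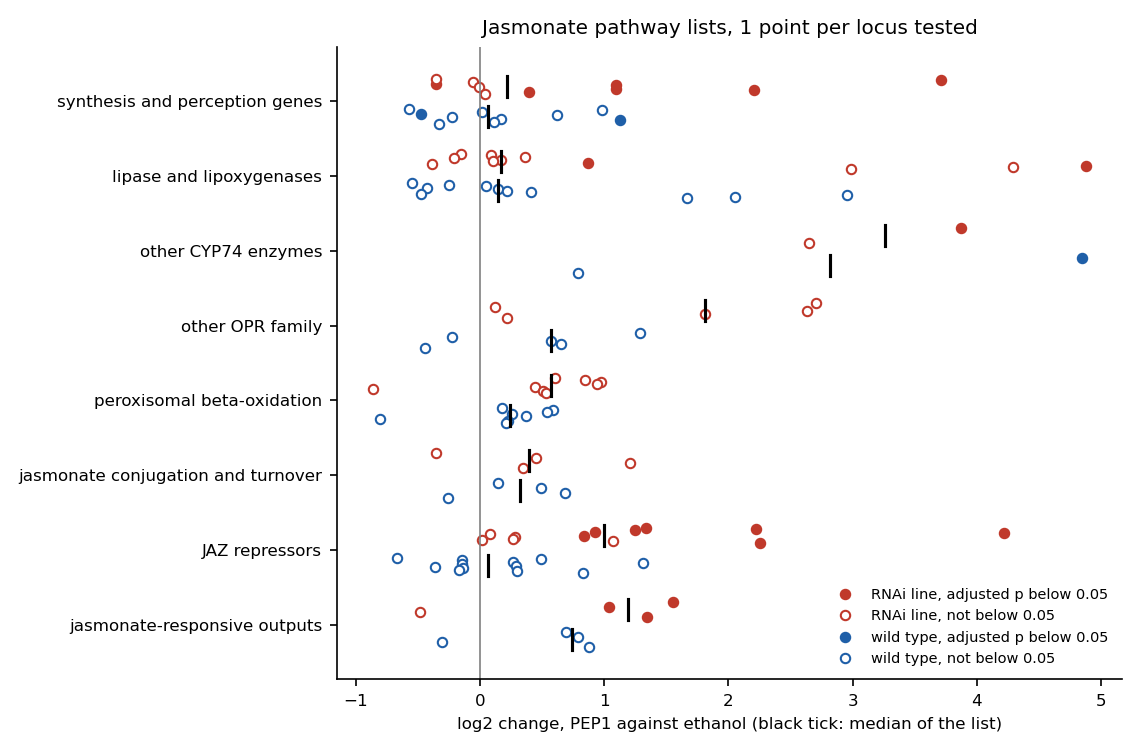
Log2 change under PEP1 against ethanol (horizontal axis) for each tested locus of the jasmonate pathway lists (rows), in the RNAi line (red, upper) and in wild type (blue, lower); filled points have an adjusted p below 0.05 and the black tick is the median of the list. Filled red points number 6 among the synthesis and perception genes, 7 among the JAZ repressors, 3 among the outputs, 2 among the lipoxygenases and 1 among the other CYP74 loci; filled blue points number 2 in the top row and 1 among the other CYP74 loci.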

How the data were processed

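The authors deposited a table of raw read counts per gene for the 12 root libraries. Which aligner, genome build, annotation, counter and strand setting they used is not given in the sources used here. All 12 libraries entered 1 fit with the 4 groups, in edgeR 4.0.16 under R 4.3.3, with TMM factors, the default filter on low counts and the quasi-likelihood test. SEs are the absolute log2 change divided by the square root of F. The code was tested on simulated data. Alternatives used DESeq2 1.42.0, limma 3.58.1 (voom), other scaling and filters, fewer groups, a replicate term, each library left out, and, added after seeing the data, the 3 libraries that stood apart left out. The 10 genes and the pathway lists were chosen with earlier results of these data known. Of the lists, at most 4 passing loci are named per comparison, by size of change. The table gives no gene names. Names come from the selection and from general knowledge: 9 of 10 (MYC2 was not listed) and 24 of 42 others stood in the RefSeq table of ASM3414082v1 on the chromosome of the ID, within 0.03 of its relative position. Neighbouring copies cannot be told apart that way. Unmatched loci are given by ID. The chi-square per degree of freedom between replicates was 15.0 or more, so no library was a duplicate.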

Additional observations from a re-analysis of the deposited data

How the results depend on the processing

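The numbers of genes called moved with the settings more than the log2 changes did. Over PEP1 against ethanol in RNAi, PEP1 against ethanol in wild type, RNAi against wild type under PEP1, RNAi against wild type under ethanol, and the interaction, edgeR called 3934, 1330, 679, 971 and 1 genes, and DESeq2 called 6291, 2577, 1044, 1699 and 95. Leaving out 1 library gave 1293 to 5604, 571 to 2942, 449 to 757, 611 to 1046 and 0 to 6, with 2942 without wild type ethanol replicate 1. Without the 3 libraries that stood apart the numbers were 2339, 2882, 532, 639 and 4. Fitting only the groups compared gave 535 in wild type and 596 between genotypes under ethanol. Of the 10 jasmonate genes, 6 were called in RNAi roots, 2 to 6 with 1 library left out and 3 without the 3 libraries that stood apart. In wild type 2 were called, 4 in DESeq2, 1 without a filter, 0 with only the groups compared and 0 to 3 with 1 library left out. Between genotypes under ethanol 1 was called (0 to 1 with 1 library left out), and 0 in limma-voom, without scaling, without a filter, with only the groups compared and without the 3 libraries; under PEP1 1 was called, and 0 to 1 with 1 library left out. Correlations of same-numbered deviations ran from -0.466 to 0.547. With 3 libraries a group, such correlations cannot decide whether replicate numbers pair the samples. A replicate block gave 3208, 1063, 571, 863 and 2 genes, ended the calls of AOC in both genotypes and of OPR7 in RNAi roots, and added AOS1 in wild type (adjusted p = 0.0247). Of the values for single loci, 1362 kept direction and side of the threshold, 168 lost the call, 9 gained one and 23 turned sign, all 23 without a call. Under ethanol COI2 turned to 0.0083 without scaling and 0.030 without the 3 libraries; under PEP1 OPR1 turned to -0.0080 without scaling, and OPR7 to -0.011 and JAR1 to -0.014 without the 3 libraries. With 1 library left out, log2 changes under PEP1 ran from -0.13 to 0.14 in COI1b and -0.065 to 0.17 in MYC2 in RNAi roots, and from -0.010 to 0.37 in JAR1 and -0.0095 to 0.056 in COI2 in wild type roots. Between genotypes they ran from -0.097 to 0.25 in OPR1, -0.011 to 0.11 in OPR7 and -0.030 to 0.40 in JAR1 under PEP1, and from -0.15 to 0.031 in COI1a, -0.22 to 0.015 in COI1b and -0.041 to 0.022 in COI2 under ethanol. The cause was not tested. A count of 3 equals 0.141 to 0.195 CPM, and every count of the 10 genes was 17 or more.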
